A study of Mus musculus with 12 samples.

Results

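The genes described here were 6 matrix metalloproteases (MMPs), Mmp2, Mmp3, Mmp9, Mmp13, Mmp14 and Mmp19, and the 4 tissue inhibitors of metalloproteases (TIMPs), Timp1 to Timp4. They were found in the expression table by the mouse Ensembl identifiers that carry these symbols, and all 10 were present among 23474 genes. Levels are given as FPKM, mapped fragments divided by transcript length and by library depth, so that levels of different genes can be set side by side per length.

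MMPs are zinc-dependent enzymes, secreted or anchored in the cell membrane, that are made as inactive precursors and cut collagens and other proteins of the extracellular matrix. TIMPs bind the active site of an MMP and block it, and each TIMP has its own preferences among the enzymes. In white adipose tissue the balance of these proteins is known for its part in remodeling the matrix around growing fat cells, and adipocytes, their stromal precursors and macrophages each make some of them.

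The RNA came from epididymal white adipose tissue (eWAT) of male C57BL/6J mice aged 17 weeks, after 12 weeks on a diet that began at 5 weeks of age. The normal diet group (ND) received a normal diet and the HFD group a high-fat diet. The GT group received the same high-fat diet with 0.25% (w/w) green tea extract, and the TJ group received it with 3% (w/w) Taeeumjowuitang, a herbal medicine. Each group held 10 mice and gave 3 libraries, each made from a single mouse, so that n = 3 per group throughout and p-values measure the spread between these mice. The GT and TJ groups were each set against the same 3 HFD libraries, and the extracts were given at different doses.

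The depth could only be estimated from the steps between small FPKM values, at about 10.5M to 22.1M fragments per library (median 18.1M), and no counting intervals were derived from it. ND replicate 1 stood apart. Its 7 testis germ cell markers summed to 96790 FPKM and its 7 epididymis markers to 12546 FPKM, whereas its 10 adipocyte markers, the lowest of any library, summed to 7158 FPKM against at least 17506 FPKM in each other library. Germ cell markers summed to 2741 FPKM in ND replicate 3 and 1956 FPKM in HFD replicate 1, epididymis markers to 1275 FPKM in HFD replicate 2, and both lists stayed at or under 149.8 FPKM in every other library. In the library labelled ND replicate 1, adipocyte markers were thus present at a lower level beside those of testis and epididymis, and each comparison with the ND group is given with and without it.

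Groups were compared with limma on log2(FPKM + 1) across every gene that averaged 1 FPKM or more, and a gene was called at an adjusted p under 0.05 and a change of at least 1.5-fold. Log2 fold changes are on this scale, which understates the change of low genes, and folds are ratios of mean FPKM.

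By mean level, 7 of the 10 genes were lower in ND, GT and TJ than in HFD, while Timp3, Timp4 and Mmp9 were at their lowest in HFD. In TJ against HFD, 7 of 10 members were called lower, namely Mmp2, Mmp3, Mmp13, Mmp14, Mmp19, Timp1 and Timp2, where 11.1% of the 12807 genes tested were called lower. Timp3 and Timp4 were called higher, where 7.41% of all genes were. The median log2 fold change of the 10 members was -1.23 and that of all genes tested -0.14. Another scaling of the libraries, by median of ratios, moved the median of all genes to -0.01 and turned no member's direction. The shares of all genes called moved to 8.49% lower and 10.1% higher with that scaling, 8.74% and 12.1% with quantile normalization and 4.19% and 9.22% with the length trend removed, where 7, 6 and 6 members were called lower and 2 in each were called higher. Without TJ replicate 1 or without any one HFD library, no member and none of all the genes tested was called, with 29.0% to 38.2% of all genes at an unadjusted p under 0.05. Without TJ replicate 2, 7 members were called, where 9.53% of all genes were called lower and 6.19% higher, and without TJ replicate 3, 8 members were called, where 16.8% and 9.67% were.

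In GT against HFD, 4 of the 9 members tested were called lower, Mmp2, Mmp3, Timp1 and Timp2, where 1.81% of 12766 genes were called lower. No member was called higher, against 1.83% of all genes. The split over all genes moved with the scaling, to 1.14% lower and 3.14% higher with median-of-ratios scaling, where 3 members were called lower, 1.27% and 3.21% with quantile normalization, where 4 were, and 0.995% and 4.28% with the length trend removed, where 3 were called lower and Timp4 was called higher. Each of the 9 members, and 29.3% of all genes, passed an unadjusted p of 0.05 in the values as deposited. The median log2 fold change was -0.85 for the members and -0.12 for all genes. Leaving out GT replicate 1 raised the count to 6, with Mmp14 called lower and Timp4 called higher, while the shares of all genes called also rose, to 5.70% lower and 2.92% higher. Leaving out any one of the other 5 libraries lowered the count to 0, where at most 0.218% of all genes were called lower and 0.315% higher. Mmp9 averaged under 1 FPKM over these libraries and was not tested.

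In HFD against ND with all 6 libraries, Mmp3 and Timp1 were called higher, 2 of 10 members, where 1.73% of 14430 genes were called higher. No member was called lower, where 0.0416% of all genes were, and 7 members, beside 11.6% of all genes, passed an unadjusted p of 0.05. Without ND replicate 1, which leaves 2 ND libraries, 7 members were called higher, where 11.0% of 13661 genes were, and Timp3 and Timp4 were called lower, where 4.34% were. The members' median was 1.62 with and 1.39 without that library, beside 0.07 and -0.02 for all genes. No member was called when any one of the other 5 libraries was left out, where at most 0.165% of all genes were called. With the replicate number as a block, none of the 14430 genes was called, and limma's adjusted p was 0.132 for Mmp3 and 0.107 for Timp1.

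In TJ against GT no member was called among the 9 tested. Of all 12187 genes, 0.00821% were called lower and 0.139% higher, and 2 of the 9 members, Timp2 and Timp4, passed an unadjusted p of 0.05, as did 24.6% of all genes.

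**Figure D1:**
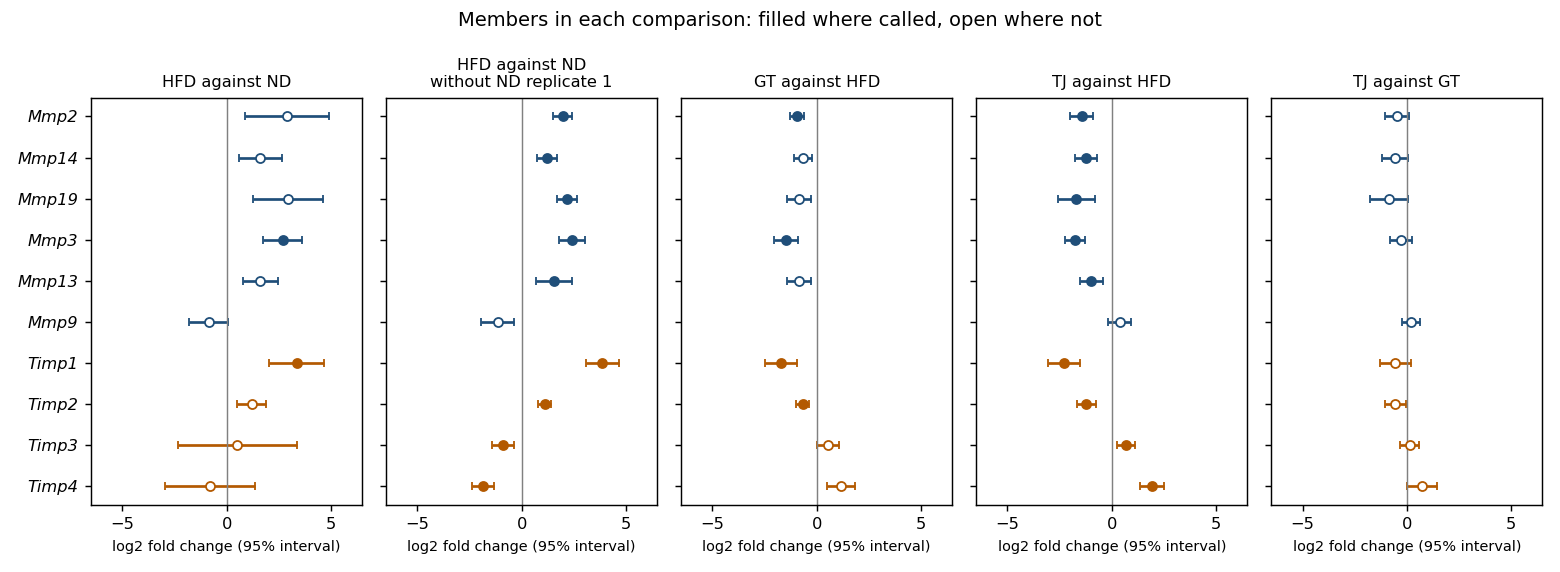
Log2 fold change of each member, on the log2(FPKM + 1) scale, in each comparison, with MMPs in blue, TIMPs in orange, bars for the 95% interval from limma and filled points for genes that were called. In TJ against HFD the points lie left of 0 for 7 members and right of 0 for Timp3, Timp4 and Mmp9, and the intervals for HFD against ND with all libraries are widest for Timp3.

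Some of the low genes entered a test only through the group in which they were high. This holds for Mmp3 in HFD against ND and for Mmp13 in every comparison with the HFD group. Mmp9 passed the filter only through the ND group in HFD against ND and only through the TJ group in TJ against HFD. The counts above include them.

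Mmp2 (ENSMUSG00000031740, chromosome 8 from 92827291 to 92853420 of GRCm38), gelatinase A, cuts denatured collagens and the type IV collagen of basement membranes. Its level was 1.47, 14.3 and 19.9 FPKM in ND replicates 1 to 3 and 67.0, 64.4 and 75.3 FPKM in the HFD replicates. It was 39.8, 37.6 and 29.2 FPKM in the GT replicates and 27.9, 17.0 and 32.1 FPKM in the TJ replicates. Every HFD library was above every other library, GT and TJ overlapped, and TJ overlapped ND. Among all genes tested, all HFD libraries were above all TJ libraries for 4020 of 12807 genes. They were above all GT libraries for 3113 of 12766 genes and above all ND libraries for 2961 of 14430. The mean was 2.68-fold lower in TJ than in HFD (log2 fold change -1.43, SE 0.24, limma adjusted p = 0.0238) and 1.94-fold lower in GT (-0.94, SE 0.14, adjusted p = 0.0338). HFD was 5.78-fold over ND with a wide error (2.91, SE 0.82, adjusted p = 0.210), and 4.02-fold over ND without ND replicate 1 (1.96, SE 0.17, adjusted p = 0.00275).

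Mmp14 (ENSMUSG00000000957, chromosome 14 from 54431612 to 54445364), the membrane-anchored MT1-MMP, cuts fibrillar collagen at the cell surface and activates the precursor of Mmp2 in a complex that includes Timp2. It stood at 8.45, 16.6 and 25.1 FPKM in ND, 48.3, 47.6 and 52.2 FPKM in HFD, 37.6, 33.4 and 22.7 FPKM in GT and 24.9, 13.9 and 24.1 FPKM in TJ. The HFD libraries, with a CV of 5.00%, again lay above all others, and the TJ libraries overlapped the ND libraries. The fall in TJ was 2.35-fold (log2 fold change -1.24, SE 0.22, adjusted p = 0.0248). In GT the ratio of means was 1.58-fold lower and missed the threshold (-0.67, SE 0.18, adjusted p = 0.0751). HFD stood 2.96-fold over ND (1.63, SE 0.42, adjusted p = 0.174) and 2.37-fold over it without ND replicate 1 (1.23, SE 0.19, adjusted p = 0.0145).

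Mmp19 (ENSMUSG00000025355, chromosome 10 from 128790910 to 128800824) is a secreted MMP that cuts basement membrane proteins. Of its 3533 exonic bases, 789 are shared with Tmem198b on the opposite strand, listed at 4.73 to 24.8 FPKM, and the library kit is not stated to keep strand, so reads of the overlap cannot be told apart. Mmp19 was at 0.932, 8.33 and 8.90 FPKM in ND, 42.1, 35.0 and 51.7 FPKM in HFD, 29.2, 26.2 and 16.0 FPKM in GT and 18.3, 6.12 and 16.4 FPKM in TJ. HFD was above every other library, and TJ replicate 2 was above ND replicate 1 and below ND replicates 2 and 3. TJ was 3.15-fold under HFD (log2 fold change -1.70, SE 0.38, adjusted p = 0.0316) and GT 1.80-fold under it (-0.85, SE 0.24, adjusted p = 0.0831, not called). Without ND replicate 1, HFD was 4.98-fold over ND (2.17, SE 0.19, adjusted p = 0.00263), against 2.95 with an SE of 0.69 (adjusted p = 0.130) when that library was kept.

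Mmp3 and Mmp13 lie near each other on chromosome 9, in the cluster of secreted MMP genes. Mmp3 (ENSMUSG00000043613, from 7445822 to 7455975), stromelysin-1, has many matrix substrates and activates other MMP precursors. Mmp13 (ENSMUSG00000050578, from 7272514 to 7283331), collagenase-3, cuts the triple helix of fibrillar collagens. Their differences had the same sign in each comparison in which both were tested, and both are textbook targets of AP-1, the Fos and Jun dimer, so the 250 bases before each gene's start are shown, from RefSeq on GRCm38.p6, plus strand, with matches to the AP-1 motif TGANTCA in capitals. They lie at chr9:7445572-7445821 and chr9:7272264-7272513.
Mmp3: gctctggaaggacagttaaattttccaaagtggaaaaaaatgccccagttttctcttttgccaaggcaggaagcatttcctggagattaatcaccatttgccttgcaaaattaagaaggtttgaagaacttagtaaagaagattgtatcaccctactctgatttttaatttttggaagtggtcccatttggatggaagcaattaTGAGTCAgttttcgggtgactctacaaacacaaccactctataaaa
Mmp13: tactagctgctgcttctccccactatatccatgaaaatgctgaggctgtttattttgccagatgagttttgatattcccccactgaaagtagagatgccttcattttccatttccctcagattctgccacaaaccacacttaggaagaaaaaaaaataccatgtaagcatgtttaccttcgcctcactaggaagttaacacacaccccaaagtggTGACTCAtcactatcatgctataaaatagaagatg

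RefSeq promoters of 250 bases before and 50 bases after the start were matched for 7 of the 10 members, all but Mmp2, Mmp9 and Mmp19. TGANTCA, which reads the same on both strands, was found in Mmp3 as TGAGTCA 46 bases before the start and in Mmp13 as TGACTCA 35 bases before it, and in none of the other 5 matched members. Of 32851 mouse promoters of that length, 7.81% held it. The TATA motif TATAAA, searched on both strands, was also found in these members alone, 7 bases before the start in Mmp3 and 16 bases before it in Mmp13, and in 13.6% of all promoters. Both motifs together were in 1.54%. These are matches of letters, and no binding was measured.

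Mmp3 was almost absent from ND, at 0.0514, 0.885 and 0.822 FPKM, and reached 9.12, 6.88 and 11.1 FPKM in HFD. With GT it was 3.73, 2.33 and 1.74 FPKM and with TJ 1.84, 1.55 and 2.30 FPKM. The HFD libraries were above all others and the TJ libraries, though low, were each above every ND library. Mmp3 was lower by 4.75-fold in TJ than in HFD (log2 fold change -1.78, SE 0.20, adjusted p = 0.0196) and by 3.47-fold in GT (-1.49, SE 0.24, adjusted p = 0.0379). In HFD against ND with all libraries it was called (2.69, SE 0.38, adjusted p = 0.0362), but not without a filter (adjusted p = 0.0617) or with the replicate block (adjusted p = 0.132), and it had passed the filter only through HFD. The mean stood 10.6-fold over ND without ND replicate 1 (2.41, SE 0.24, adjusted p = 0.00410).

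Mmp13 was at 0.0332, 0.264 and 0.132 FPKM in ND and 2.16, 2.06 and 3.47 FPKM in HFD. It was at 0.900, 1.34 and 0.620 FPKM in GT and 0.902, 0.612 and 0.833 FPKM in TJ. No library of another group reached the HFD range. The mean in TJ was 3.28-fold under HFD (log2 fold change -0.98, SE 0.24, adjusted p = 0.0361), and the mean in GT was 2.69-fold under it (-0.86, SE 0.24, adjusted p = 0.0785, not called). The call in TJ was lost with quantile normalization (adjusted p = 0.149), without a filter (0.0566), with the replicate block (0.0744), with the length trend removed (0.0512), with all 12 libraries (0.0873) and in 5 of the 6 fits without a library (0.0559 to 0.134). In HFD against ND the log2 difference was 1.62 (SE 0.34, adjusted p = 0.0976) with ND replicate 1 and 1.55 (SE 0.35, adjusted p = 0.0408) without it. At the estimated depths, 1 to 11 fragments in the ND libraries and 26 to 137 in the others stood behind these values.

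Mmp9 (ENSMUSG00000017737, chromosome 2 from 164940780 to 164955850), gelatinase B, shares substrates with Mmp2 and is known from neutrophils and macrophages. It was the MMP that did not share the pattern, at 1.22, 2.47 and 3.65 FPKM in ND and 0.861, 0.642 and 0.935 FPKM in HFD. In GT it was 0.996, 0.762 and 1.49 FPKM and in TJ 1.05, 1.55 and 1.47 FPKM. Every HFD library was below every ND and every TJ library. The same held against ND for 850 of 14430 genes tested and against TJ for 2579 of 12807. No comparison was called. The log2 difference was -0.87 (95% interval -1.82 to 0.09, adjusted p = 0.477) for HFD against ND, -1.15 (-1.94 to -0.36, adjusted p = 0.0670) without ND replicate 1, and 0.37 (-0.17 to 0.92, adjusted p = 0.250) for TJ against HFD. Mesothelial markers were also higher in ND, where the 5 genes summed to 26.7 to 71.9 FPKM against 9.17 to 11.9 FPKM in HFD, and the 7 neutrophil markers, 1 or 2 of them at 0 in each group, were lower there, at 0.407 to 10.9 FPKM against 57.2 to 65.5 FPKM. The mesothelial sum was 5.66 to 12.8 FPKM in GT and 3.57 to 16.9 FPKM in TJ. The neutrophil sum was 37.0 to 80.2 FPKM in GT and 16.8 to 78.8 FPKM in TJ. Within ND, replicate 1 had the highest mesothelial sum and the lowest Mmp9. The part of these cells in the Mmp9 values was not tested.

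**Figure D2:**
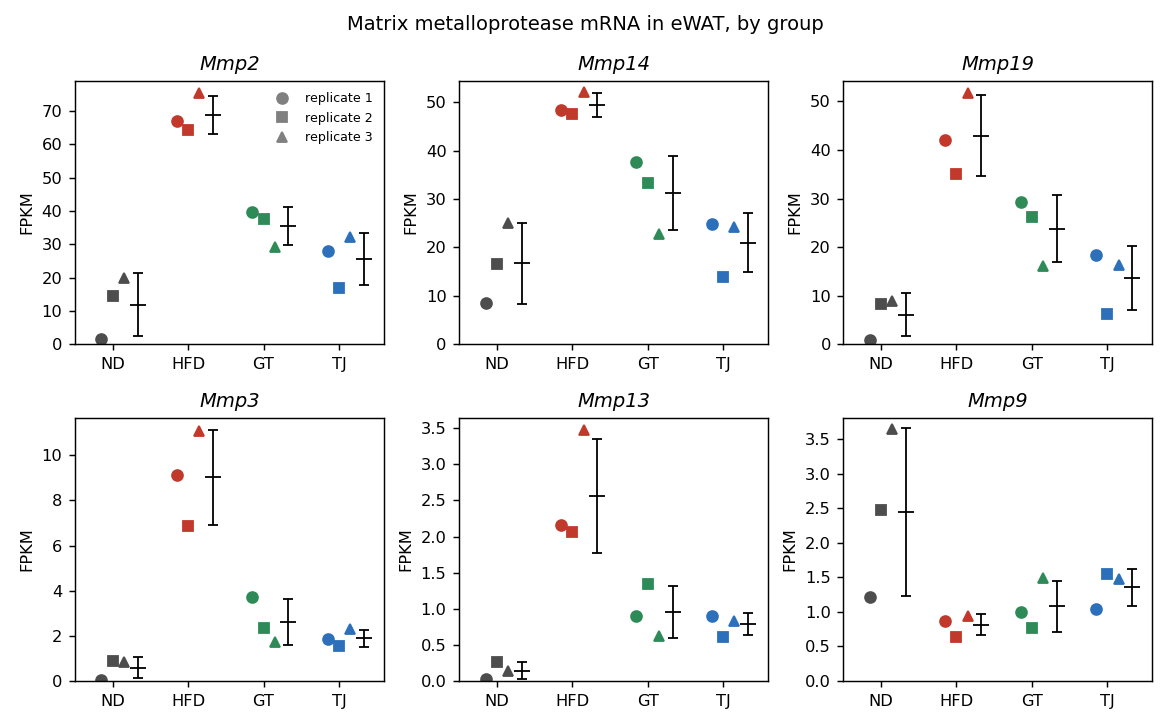
FPKM of the 6 MMPs in each library by group (points, with the replicate number as the shape) and the mean with its SD (bars, n = 3). For Mmp2, Mmp14, Mmp19, Mmp3 and Mmp13 the 3 HFD points lie above all other points, and for Mmp9 they lie below all ND and TJ points. All HFD libraries were above all TJ libraries for 4020 of 12807 genes tested, and above all GT libraries for 3113 of 12766.

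Timp1 (ENSMUSG00000001131, X chromosome from 20870166 to 20874735) blocks most secreted MMPs and is a weak inhibitor of MT1-MMP. It lies inside Syn1 on the opposite strand with 0 shared exonic bases, and Syn1 stayed between 0.237 and 1.28 FPKM. Timp1 was at 5.71, 1.48 and 1.25 FPKM in ND, 42.6, 22.0 and 39.3 FPKM in HFD, 13.2, 10.4 and 6.00 FPKM in GT and 8.45, 3.89 and 6.60 FPKM in TJ. HFD was above all other libraries and HFD replicate 2 was the lowest of the 3. Here ND replicate 1 was the highest ND library, whereas for each of the 6 MMPs it was the lowest.

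Timp1 fell in TJ by 5.48-fold (log2 fold change -2.28, SE 0.32, adjusted p = 0.0196), and in GT by 3.50-fold (-1.72, SE 0.33, adjusted p = 0.0441). It rose in HFD against ND by 12.3-fold with all libraries (3.36, SE 0.54, adjusted p = 0.0470) and by 25.4-fold without ND replicate 1 (3.86, SE 0.31, adjusted p = 0.00210). The call with all libraries was lost with the replicate block (adjusted p = 0.107), a pseudocount of 0.1 (0.0679) and no filter (0.0664). It was also lost with median-of-ratios scaling (0.0818) and quantile normalization (0.0716). The TJ mean was 2.25-fold over the mean of the 3 ND libraries, which TJ overlapped, and 4.64-fold over that of ND replicates 2 and 3, with each TJ library above both.

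Timp2 (ENSMUSG00000017466, chromosome 11 from 118301069 to 118355740, minus strand) inhibits MMPs and at low levels takes part in the activation of Mmp2 by MT1-MMP. It was the most abundant member by mean level in HFD and GT. Its level was 93.6, 114 and 123 FPKM in ND, 231, 258 and 280 FPKM in HFD, 172, 176 and 135 FPKM in GT and 130, 83.7 and 120 FPKM in TJ. The groups ran from HFD through GT down to TJ with no overlap, and TJ overlapped ND. Timp2 fell 2.31-fold in TJ (log2 fold change -1.22, SE 0.20, adjusted p = 0.0232) and 1.59-fold in GT (-0.67, SE 0.14, adjusted p = 0.0482). HFD was 2.33-fold over ND (1.22, SE 0.28, adjusted p = 0.130), and 2.16-fold over it without ND replicate 1 (1.10, SE 0.13, adjusted p = 0.00620).

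Timp3 (ENSMUSG00000020044, chromosome 10 from 86300372 to 86349506) is the TIMP that stays bound to the matrix, and it also inhibits ADAM and ADAMTS proteases. It overlaps Syn3 on the opposite strand over 1733 of 8144 exonic bases, with Syn3 at 0.206 to 0.780 FPKM. Timp3 was at 4.04, 84.5 and 95.3 FPKM in ND, 45.0, 62.2 and 40.5 FPKM in HFD, 60.5, 62.8 and 94.0 FPKM in GT and 70.2, 83.0 and 82.6 FPKM in TJ. ND replicate 1 was far below every other library, GT overlapped HFD, and TJ lay above HFD. Timp3 rose 1.60-fold in TJ (log2 fold change 0.68, SE 0.19, adjusted p = 0.0449), while GT gave 0.54 (SE 0.22, adjusted p = 0.160). This call was lost without a filter (adjusted p = 0.0777), with the replicate block (0.0686), without the trend (0.0526), with all 12 libraries (0.731) and without any one of the 6 libraries (0.0655 to 0.152). The mean of Timp3 was lower in HFD than in ND both with ND replicate 1 (49.2 against 61.3 FPKM) and without it (49.2 against 89.9 FPKM). The log2 difference, an average of log values, was 0.51 with it, against the direction of the means (SE 1.17, adjusted p = 0.818), and -0.88 without it (SE 0.21, adjusted p = 0.0476).

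Timp4 (ENSMUSG00000030317, chromosome 6 from 115241892 to 115252205, minus strand) is the TIMP with the most restricted expression and is known from heart and adipose tissue. It shares 90 of 5894 exonic bases with Syn2 on the opposite strand, which stood at 1.33 to 6.72 FPKM. Timp4 was at 16.6, 169 and 128 FPKM in ND, 40.8, 48.6 and 33.5 FPKM in HFD, 65.1, 86.9 and 141 FPKM in GT and 131, 217 and 130 FPKM in TJ. ND replicate 1 was the lowest library, and outside it the HFD libraries were below all others. Timp4 rose 3.89-fold in TJ (log2 fold change 1.91, SE 0.24, adjusted p = 0.0196), and GT was 2.38-fold over HFD without passing the threshold (1.17, SE 0.28, adjusted p = 0.0608). HFD against ND was -0.81 (SE 0.88, adjusted p = 0.636), and without ND replicate 1 Timp4 was lower in HFD by 3.63-fold (-1.84, SE 0.21, adjusted p = 0.00591).

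**Figure D3:**
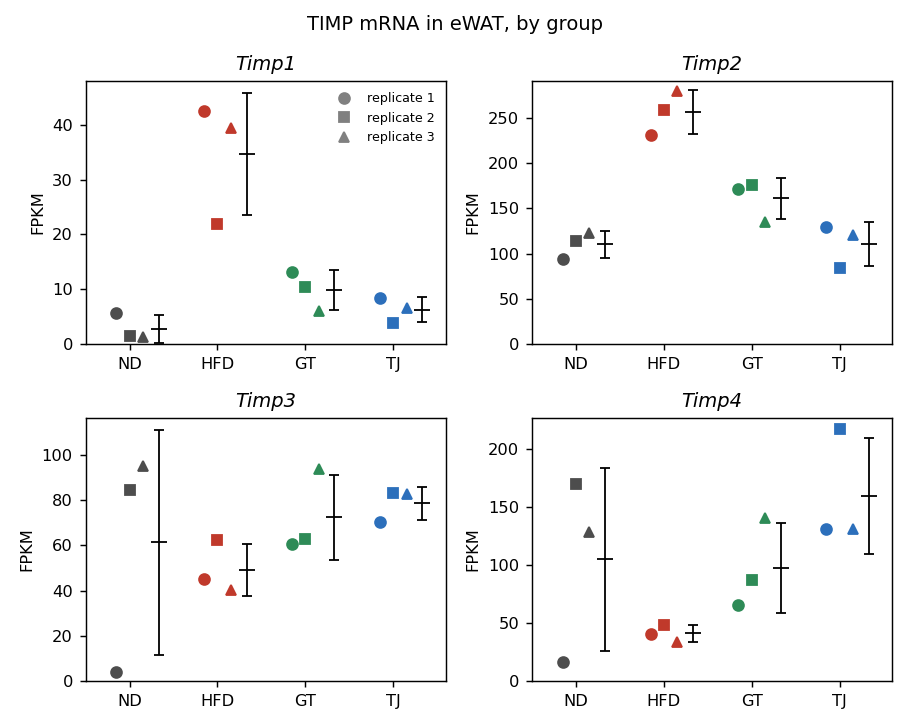
FPKM of the 4 TIMPs in each library by group (points, with the replicate number as the shape) and the mean with its SD (bars, n = 3). The HFD points are the highest for Timp1 and Timp2, and for Timp4 they are below all GT, TJ and ND points except ND replicate 1 at 16.6 FPKM.

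Although single TIMPs changed several-fold, their sum stayed in a narrow range outside ND replicate 1. The 4 TIMPs summed to 360 to 393 FPKM in HFD, 311 to 376 FPKM in GT, 339 to 387 FPKM in TJ and 348 to 369 FPKM in ND replicates 2 and 3, and to 120.0 FPKM in ND replicate 1. What differed was the makeup. Timp2 made up 64.3% to 71.2% of the sum in HFD, 35.9% to 55.3% in GT, 21.6% to 38.3% in TJ and 30.9% and 35.5% in ND replicates 2 and 3. Timp3 and Timp4 together made up 18.8% to 28.3% in HFD, 40.4% to 62.5% in GT, 59.2% to 77.4% in TJ and 68.7% and 64.2% in the same ND libraries. The share of Timp3 and Timp4 in GT replicate 3 was within the TJ range, and the other GT libraries lay between HFD and TJ. ND replicate 1 had 78.0% Timp2.

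**Figure D4:**
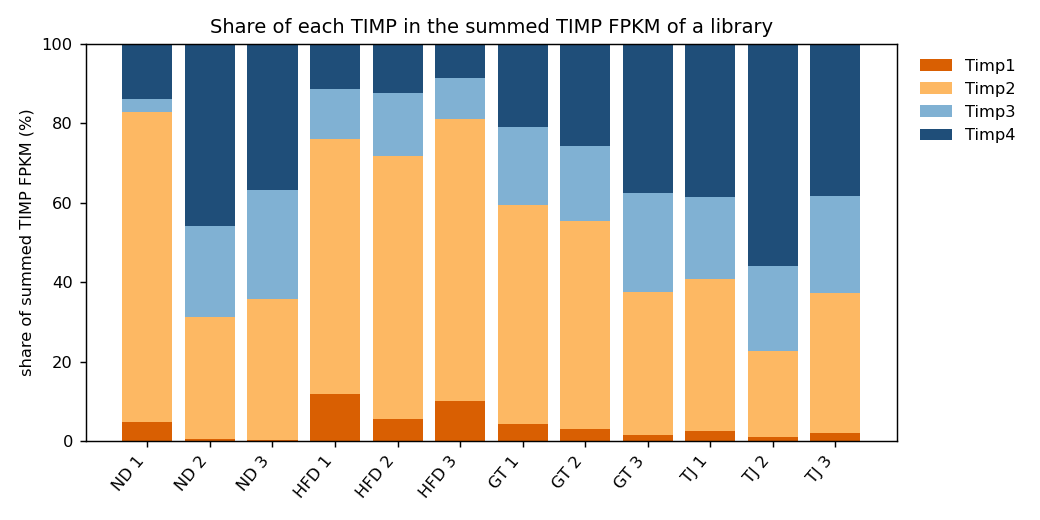
Share of each TIMP, in percent, in the summed TIMP FPKM of each of the 12 libraries. Timp3 and Timp4 (blue) reach 18.8% to 28.3% in the HFD libraries and 59.2% to 77.4% in the TJ libraries.

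The 6 MMPs summed to 156 to 195 FPKM in HFD, 71.7 to 112 FPKM in GT, 40.7 to 77.3 FPKM in TJ and 42.9 and 58.5 FPKM in ND replicates 2 and 3, with 12.2 FPKM in ND replicate 1. The ratio of this sum of 6 MMPs to the TIMP sum was 0.400 to 0.495 in HFD, 0.191 to 0.361 in GT, 0.105 to 0.227 in TJ and 0.101, 0.116 and 0.168 in ND replicates 1 to 3. HFD was above all other libraries in both measures. The sum leaves out Mmp12, the macrophage elastase, and with it the ratio was 2.52 to 4.00 in HFD, 0.560 to 1.78 in GT, 0.155 to 1.11 in TJ and 0.102 to 0.185 in ND. Mmp2 held 38.7% to 41.1% of the MMP sum in HFD, 35.5% to 40.7% in GT, 37.2% to 41.7% in TJ and 33.4% and 34.1% in ND replicates 2 and 3. Mmp14 held 26.8% to 30.4% in HFD, 31.7% to 33.5% in GT, 31.2% to 34.2% in TJ and 38.7% and 42.8% in those ND libraries. The low MMPs spread more. Mmp3 held 4.39% to 5.69% in HFD, 2.30% to 3.32% in GT, 2.46% to 3.80% in TJ and 2.06% and 1.41% in ND replicates 2 and 3, and Mmp9 held 0.410% to 0.508%, 0.749% to 2.07%, 1.40% to 3.79% and 5.75% and 6.24%. In ND replicate 1, Mmp14 alone held 69.5%.

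The ratio of Mmp14 to Timp2, the pair that acts on the Mmp2 precursor, was 0.184 to 0.209 in HFD, 0.168 to 0.219 in GT and 0.166 to 0.201 in TJ, and these groups overlapped. In ND replicates 1 to 3 it was 0.0902, 0.146 and 0.203, the first 2 of them below every other library. The ratio of Timp4 to Timp1 spread the most. It was 0.853 to 2.21 in HFD, 4.93 to 23.4 in GT, 15.4 to 55.6 in TJ and 115 and 103 in ND replicates 2 and 3, whereas ND replicate 1 was at 2.91. These sums and ratios are descriptions of mRNA, and protein and enzyme activity were not measured.

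The direct comparison of the extracts gave intervals that left room for moderate differences. The log2 difference of TJ against GT was -0.55 (95% interval -1.03 to -0.06, adjusted p = 0.174) for Timp2 and 0.73 (0.00 to 1.46, adjusted p = 0.203) for Timp4. It was -0.85 (-1.76 to 0.07, adjusted p = 0.224) for Mmp19, -0.57 (-1.19 to 0.05, adjusted p = 0.228) for Mmp14 and -0.49 (-1.06 to 0.08, adjusted p = 0.248) for Mmp2. For Mmp3 it was -0.28 (-0.81 to 0.24, adjusted p = 0.423), and for Timp1 it was -0.56 (-1.31 to 0.18, adjusted p = 0.289). Timp3 differed by 0.14 (-0.32 to 0.60, adjusted p = 0.653) and Mmp9 by 0.19 (-0.24 to 0.62, adjusted p = 0.518). Mmp13 was under the filter, and without a filter its difference was -0.12. Except for Timp2, each tested member's GT and TJ libraries overlapped. Of all 12187 genes tested, 1819 were lower in every TJ library than in every GT library and 2377 were higher.

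Markers of several cell types moved with these genes, and in bulk tissue fewer cells of a type and less RNA per cell cannot be told apart. The 10 macrophage markers summed to 453 and 578 FPKM in ND replicates 3 and 2, 2921 to 4089 FPKM in HFD, 1221 to 2675 FPKM in GT and 728 to 2138 FPKM in TJ. In TJ against HFD 8 of 10 were called lower, where 11.1% of all genes were, among them Adgre1, which encodes F4/80 (log2 fold change -2.51, adjusted p = 0.0380). In GT against HFD none was called, where 1.81% of all genes were called lower, with 8 at an unadjusted p under 0.05. Within TJ, replicate 2 had the lowest macrophage sum and also the lowest Mmp2, Mmp3, Mmp13, Mmp14, Mmp19, Timp1 and Timp2. Within GT, replicate 3 had the lowest macrophage sum and the lowest of those same genes. Within HFD, replicate 2 had the lowest macrophage sum and the lowest of these genes except Timp2, which was lowest in replicate 1, and within ND, replicate 1 had the lowest sum and the lowest of these genes except Timp1, of which it had the highest level.

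The 10 fibroblast or progenitor markers summed to 2423 to 2645 FPKM in HFD, 1530 to 1970 FPKM in GT and 1517 to 1565 FPKM in TJ. Of the 10, 5 were called lower in TJ, where 11.1% of all genes were, among them Col3a1 (-1.89, adjusted p = 0.0276), and 2 in GT, where 1.81% were, Pi16 (-0.96, adjusted p = 0.0379) and Pdgfra (-0.85, adjusted p = 0.0300). The 10 adipocyte markers summed to 17506 to 20009 FPKM in HFD, 24894 to 29360 FPKM in GT and 31023 to 68620 FPKM in TJ, with 7 called higher in TJ, where 7.41% of all genes were, and 3 in GT, where 1.83% were. Adipoq, which encodes adiponectin, was at 991 ± 71.8 FPKM in HFD and 2801 ± 816 FPKM in TJ (SD, n = 3). TJ replicate 2 had the highest adipocyte sum and the highest Timp4 of its group, as had GT replicate 3 and ND replicate 2 of theirs. In HFD the highest adipocyte sum was in replicate 1 and the highest Timp4 in replicate 2. Of 8 endothelial markers, 4 were called higher in TJ. The 4 mast cell markers summed to 21.8 to 33.1 FPKM in HFD, 7.66 to 8.93 FPKM in GT and 5.52 to 7.08 FPKM in TJ, with no overlap of these groups, and 3 of them were called lower in TJ and 3 in GT, beside the same shares of all genes. One of the 3, Cpa3, a mast cell carboxypeptidase, had passed the filter only through HFD, at a mean of 5.08 FPKM against 0.292 FPKM in TJ and 0.771 FPKM in GT. No macrophage, fibroblast or progenitor, adipocyte or endothelial marker was at 0 in any group. The part of each cell type in the members' values was not tested.

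**Figure D5:**
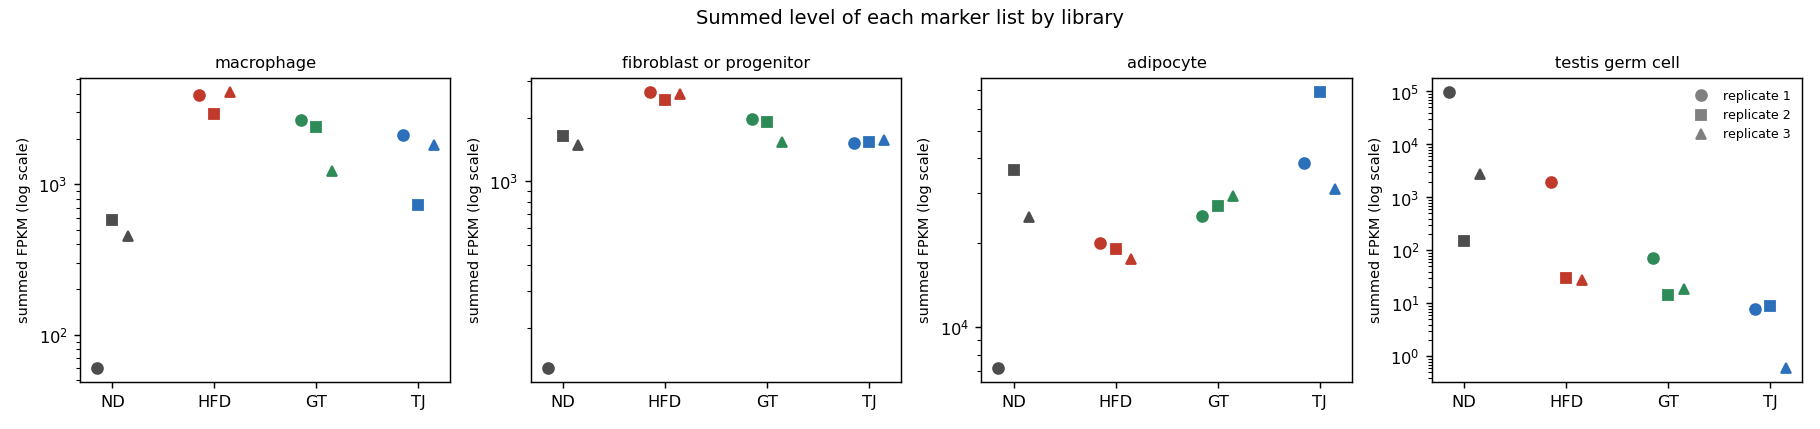
Summed FPKM of the macrophage, fibroblast or progenitor, adipocyte and testis germ cell markers in each library, on log axes. Macrophage sums are 2921 to 4089 FPKM in HFD and 728 to 2138 FPKM in TJ, and ND replicate 1 is lowest in the first 3 panels and highest in the germ cell panel at 96790 FPKM.

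Other genes of the protease system were read from the same fits, in which 11.1% of all genes were called lower and 7.41% higher in TJ against HFD. Of 17 other MMPs, 6 were tested in TJ against HFD, and 1 was called, Mmp28, also known as epilysin, which was higher in TJ at 21.9, 25.9 and 23.6 FPKM than in HFD at 13.9, 14.8 and 13.2 FPKM (log2 fold change 0.73, SE 0.12, adjusted p = 0.0247). In the plasminogen system, which activates several MMP precursors, 2 of 8 were called lower in TJ, the activators Plau (-1.13, adjusted p = 0.0287) and Plat (-0.75, adjusted p = 0.0257). Among 10 tested activators and surface regulators of MMPs, Cd44, a hyaluronan receptor that can dock Mmp9, was called lower (-2.58, adjusted p = 0.0346) and Bsg, which encodes the MMP inducer basigin, higher (0.69, adjusted p = 0.0402). These counts of 1 in each direction are near the shares of all genes called.

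Of 13 ADAM and ADAMTS proteases, 6 were called lower in TJ, where 11.1% of all genes were, led by Adam8 (-2.80, adjusted p = 0.0467) and Adam12 (-1.53, adjusted p = 0.0316). Their median was -0.73, beside -0.14 for all genes. Among 12 tested AP-1 subunits and other regulators of MMP genes, Runx2 (-1.40, adjusted p = 0.0325) and Runx1 (-1.31, adjusted p = 0.0268) were called lower. This count is near the 11.1% of all genes called lower, and no Fos or Jun gene was called in TJ against HFD. In GT against HFD 1 of the 49 genes of these 5 lists that were tested was called, lower, the Jun family gene Jund (-1.25, adjusted p = 0.0379). That is near the 1.81% of all genes called lower, and in TJ against GT no gene of these lists was called.

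In HFD against ND with all libraries, 3 of the 51 genes of these lists that were tested were called, all higher, where 1.73% of all genes were called higher and 0.0416% lower. They were Mmp12 (7.90, adjusted p = 0.0234), the macrophage elastase, Cd44 (4.36, adjusted p = 0.0345) and Adam8 (5.84, adjusted p = 0.0130), and none was called with the replicate block. Mmp12 was called higher without ND replicate 1 as well (6.91, adjusted p = 0.000735). Without ND replicate 1, where 11.0% of all genes were called higher and 4.34% lower, the plasminogen list had 3 of 8 called higher. They were led by the urokinase receptor gene Plaur (2.45, adjusted p = 0.00196) and by Plau (1.86, adjusted p = 0.00200). The ADAM and ADAMTS list had 5 of 13 called higher, led by Adam8 (5.36, adjusted p = 0.000951) and Adam12 (1.71, adjusted p = 0.00418). Of the 12 regulators 4 were called higher, led by the AP-1 subunit Fos (3.04, adjusted p = 0.000904) and Runx1 (1.68, adjusted p = 0.00435). Among 10 activators and surface regulators, 3 were called higher, led by Cd44 (3.69, adjusted p = 0.000735) and Lrp1, a receptor that clears MMPs (1.27, adjusted p = 0.0122). In that list the convertase genes Pcsk6 (-1.07, adjusted p = 0.00560) and Pcsk5 (-0.70, adjusted p = 0.0382) were called lower, as was Mmp28 (-1.10, adjusted p = 0.00503).

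The genes whose log2(FPKM + 1) ran most alike were listed for each member by Pearson correlation over the 12 libraries among 13935 genes, as a description in which the group differences and ND replicate 1 enter. Mmp19 was nearest to Rassf4, Plekhb2 and the macrophage marker Adgre1 (r = 0.996 to 0.994). Mmp3 was nearest to Abcb4 (0.985), as was Mmp13 (0.972), which had Mgp (0.969) and Mmp3 (0.961) next. Mmp2 was nearest to Scamp5, Actn1 and Ifnar1 (0.994 to 0.993), Mmp14 to Rab31, Myof and Slc38a1 (0.991 to 0.989), and Timp2 to Ulbp1, Gas7 and Nt5dc3 (0.988 to 0.982).

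Among the remaining TIMPs, Timp1 was nearest to Tubb6, Akr1b8 and Tubb5 (0.978 to 0.977), Timp3 to Adgra3, Pvr and Cdh13 (0.990 for each) and Timp4 to Zrsr1, Mettl7a1 and Nnat (0.982 to 0.979). Mmp9 had the weakest neighbours, Npnt, Slc7a6 and the mesothelial marker Lrrn4 (0.917 to 0.901). Over the 11 libraries without ND replicate 1, the neighbours of Timp4 were Kcns3, Mettl7a1 and Adipoq (0.989 to 0.978), those of Mmp19 were Hmga1b, the macrophage marker Itgam and Wipf1 (0.993 to 0.992), and those of Timp3 were Sox7, Plppr3 and Mmp28 (0.940 to 0.931). Mmp3 and Mmp13 both kept Abcb4 among their 3 nearest genes (0.990 and 0.966).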

How the data were processed

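RNA of eWAT from 12 mice, 3 in each of 4 groups, was sequenced, and the authors deposited a table of FPKM values, 23474 genes by 12 libraries. Their methods describe filtered reads, mapping with STAR, and FPKM from Cufflinks, which masked noncoding genes and corrected for multireads and fragment bias, on Ensembl release 72, naming the human genome although all identifiers are mouse. The submitters' processing notes name CASAVA 1.8.2, STAR 2.4.0 and Cufflinks 2.1.1. Masking, the bias model and reads shared between overlapping genes can shift a gene's FPKM, and the read counts behind the authors' tests were not used here.

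Symbols and coordinates came from GENCODE mouse release 21, which named 22671 identifiers and left 803 unnamed. Depth was estimated from FPKM steps of 2315 genes whose only transcript was 1500 nt or longer, with fragments taken as 200 nt. The 6 libraries of each pair of groups were fitted on log2(FPKM + 1) by lmFit and trended eBayes of limma 3.58.1 (R 4.3.3), without covariates, genes with a mean under 1 FPKM were dropped, and p-values were adjusted by Benjamini-Hochberg over all genes tested. Exact permutation tests, whose smallest p here is 0.1, were not used. The fit was tested on simulated data. Sums, ratios and correlations were computed in python 3.11.15 (pandas 2.3.3, numpy 2.4.6).

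The members and lists were chosen with earlier results of these data known. All 10 members are named in every comparison. From each pathway list up to 2 called genes with the largest change per direction are named, and for each member the 3 genes most correlated with it. The marker genes named with values fall outside this rule and were chosen after their values were seen.

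Replicate numbers were checked for pairing by correlating deviations from the group means over genes. In HFD against ND the correlations were 0.55, 0.34 and 0.12 for numbers 1 to 3, so a blocked fit is given beside the results of that comparison that it changes, although neither the labels nor the paper name anything the numbers share. The values themselves come from the fit without the block. In the other comparisons at least 1 correlation was under 0.1. Alternatives were a pseudocount of 0.1, no filter, quantile normalization, median-of-ratios scaling, a fit of all 12 libraries, a replicate block, no trend, removal of the trend with transcript length (loess, span 0.5), each library left out in turn and, chosen after the data were seen, all libraries but ND replicate 1 in the fit.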

Additional observations from a re-analysis of the deposited data

How the results depend on the processing

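The counts of members called differed widely between alternatives, as did the share of all genes called. In TJ against HFD, 9 members were called in the values above and 5 without a filter (Mmp13, Mmp14, Mmp19 and Timp3 were lost), where 0.904% of all genes were called lower and 0.973% higher. With all 12 libraries in the fit 0 were called, as was only 1 of 12807 genes. Leaving out each library in turn gave 0 to 8, and the other alternatives gave 7 to 9. Among these, a pseudocount of 0.1 gave 9, where 11.7% of all genes were called lower and 8.09% higher. The fit by eBayes without the trend gave 8, where 9.59% and 6.56% were. All libraries but ND replicate 1 in the fit gave 9, where 1787 of 12807 genes were called lower and 1216 higher.

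In GT against HFD, 4 were called. The count was 0 without a filter, where 5 of all genes were called, 0 with all 12 libraries, where 1 was, and 0 with eBayes without the trend, where 0.266% were called lower and 0.258% higher. It was 2 with all libraries but ND replicate 1 in the fit, where 0.525% and 0.564% were, and 0 to 6 with a library left out.

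In HFD against ND, 2 were called. The count was 0 with a pseudocount of 0.1, without a filter or with quantile normalization and 1 with median-of-ratios scaling, where 0.839% to 1.53% of all genes were called higher. It was 7 with all 12 libraries, where 7.12% were called higher and 0.714% lower, 10 with all libraries but ND replicate 1, where 13.0% and 6.44% were, and 0 to 9 with a library left out. In TJ against GT 0 were called in every alternative. The cause of these differences was not tested.

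With the replicate number as a block, the count was 0 in HFD against ND, where libraries of the same number had correlated deviations and 0 of all genes were called. It was 0 in GT against HFD, where 5 of 12766 genes were called, and 7 in TJ against HFD, where 6.00% were called lower and 3.35% higher. In none of these comparisons do the labels or the paper name anything that libraries of the same number share. The log2 fold change of Timp3 in HFD against ND reversed from 0.51 to -0.88 without ND replicate 1, also with all other libraries in the fit, and ranged from -0.88 to 1.25 with a library left out. No other member changed direction in any comparison under any of these alternatives. With FPKM values alone, the precision of low genes such as Mmp13 and Mmp9 is unknown.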

Other observations

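Among the MMPs outside the 10 genes, Mmp12, the macrophage elastase, was listed at 0.0959, 9.70 and 5.95 FPKM in ND, 970, 828 and 1379 FPKM in HFD, 441, 367 and 139 FPKM in GT and 301, 19.5 and 239 FPKM in TJ. In each HFD library it was above the summed level of the 6 MMPs described above, and in TJ replicate 2 it was below that sum. TJ replicate 2 also had the lowest macrophage marker sum of its group.

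Mmp11, stromelysin-3, and Mmp23 were at 5.61 to 21.4 FPKM and 4.85 to 24.0 FPKM over the 12 libraries. Mmp11 had its highest level in TJ, at 21.4, 20.2 and 18.8 FPKM, each above the 3 HFD libraries at 16.7, 16.0 and 17.3 FPKM, without being called in TJ against HFD. Mmp28 was at 31.0 and 30.9 FPKM in ND replicates 2 and 3 and 16.5, 22.3 and 32.4 FPKM in GT. Mmp7, matrilysin, was listed at 17.5, 0 and 29.0 FPKM in ND, at 5.19, 3.08 and 0.0728 FPKM in HFD, at 1.06 to 2.05 FPKM in GT and at 0 to 0.354 FPKM in TJ. ND replicates 1 and 3 and HFD replicates 1 and 2 are also the libraries named above for their testis germ cell or epididymis markers, whose part in the Mmp7 values was not tested. Cep295nl, which lies within Timp2 on the same strand and shares 0 exonic bases with it, reached 186 FPKM in one library with a median of 0.651 FPKM over all 12.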
